A study of Mus musculus with 2 samples.

Results

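The genes described here are 9 genes of the myelin program, Mbp, Cnp, Mog, Mag, Mobp, Myrf, Opalin, Enpp6 and Cldn11, measured by single-cell RNA sequencing in mouse glioblastoma. They were chosen by symbol, and each had 1 row among the 19059 genes of the count matrices. The tumors were orthotopic and grew from mouse GBM stem cells (mGSC) of the genotype Trp53+/- and Nf1+/-, placed in the striatum of C57BL/6J mice aged 6 to 8 weeks. The mGSC line is a single transplanted line, so tumor cells of all mice share its 2 heterozygous mutations, while the stroma belongs to the host. The mice received vehicle, or Xevinapant at 50 mg/kg/day by mouth, for 7 days, with 4 tumors per group, and cells were isolated right after treatment. Xevinapant is a SMAC mimetic, a small molecule that antagonizes the inhibitor of apoptosis proteins. The comparisons asked in which tumor cell states these genes were expressed, whether they were expressed together in the same cells, and whether their level differed between vehicle and Xevinapant.

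Oligodendrocytes arise from dividing oligodendrocyte progenitor cells (OPCs), which leave the cell cycle, pass through a committed Gpr17+ stage and a premyelinating Bcas1+ stage, and then wrap axons in myelin. The transcription factor Myrf is required for the last steps and binds near many myelin genes. Gliomas often keep the early part of this lineage, and OPC-like cells are a well known state of glioblastoma. Among the members, Enpp6, a choline phosphodiesterase, is known as an early marker of newly formed oligodendrocytes. Mbp and Mobp are basic proteins of compact myelin. Cnp is an enzyme of the cytoplasmic channels in myelin, Cldn11 forms the tight junctions between myelin layers, Mag is an adhesion molecule on the inner, axon-facing membrane, and Mog and Opalin are membrane proteins of oligodendrocytes.

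The promoters of 5 members are shown because each holds at least 1 match to the SOX-type or MYRF-type letters searched for, in which N takes any base. RefSeq's promoter table for GRCm38.p6 had rows for 7 members, all but Mbp and Myrf. Each sequence runs 5′ to 3′ along the gene over the 200 bases that end 51 bases before the start, and capitals mark matches on either strand to ACAAAG (SOX type, reverse CTTTGT) or CTGGNAC (MYRF type, reverse GTNCCAG).
Mag, chr7:30914914-30915113, minus strand: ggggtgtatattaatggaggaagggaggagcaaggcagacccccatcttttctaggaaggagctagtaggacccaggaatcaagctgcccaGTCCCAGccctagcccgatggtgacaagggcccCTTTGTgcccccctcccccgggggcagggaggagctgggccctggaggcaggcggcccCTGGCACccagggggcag
Cnp, chr11:100574689-100574888, plus strand: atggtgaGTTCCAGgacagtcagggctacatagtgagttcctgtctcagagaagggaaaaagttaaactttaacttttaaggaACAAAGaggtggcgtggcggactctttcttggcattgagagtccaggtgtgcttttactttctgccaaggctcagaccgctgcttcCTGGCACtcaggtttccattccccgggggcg
Mog, chr17:37023449-37023648, minus strand: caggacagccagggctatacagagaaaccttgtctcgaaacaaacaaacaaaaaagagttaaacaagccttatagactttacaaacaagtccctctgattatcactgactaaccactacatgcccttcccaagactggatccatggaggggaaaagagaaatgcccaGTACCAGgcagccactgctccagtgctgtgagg
Mobp, chr9:120149492-120149691, plus strand: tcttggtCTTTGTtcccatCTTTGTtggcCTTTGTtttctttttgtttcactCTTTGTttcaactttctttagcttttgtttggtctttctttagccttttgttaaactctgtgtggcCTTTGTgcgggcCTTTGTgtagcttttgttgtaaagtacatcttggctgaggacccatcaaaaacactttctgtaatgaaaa
Opalin, chr19:41077164-41077363, minus strand: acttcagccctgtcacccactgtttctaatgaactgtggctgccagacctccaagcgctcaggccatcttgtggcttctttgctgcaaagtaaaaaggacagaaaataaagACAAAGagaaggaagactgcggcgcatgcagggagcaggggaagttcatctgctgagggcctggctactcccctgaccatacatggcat
The table holds 3 windows for Mag, of which the one shown and another that overlaps it hold the same matches and the third holds none. The Mag window shown and the Cnp promoter each held 1 SOX-type and 2 MYRF-type matches, Mog held 1 MYRF-type match, Opalin held 1 SOX-type match, and Mobp held 6 SOX-type matches and no MYRF-type match. No match lay in the windows of Cldn11 and Enpp6. Of 32851 promoters in the table, 16.5% held the SOX-type letters, 16.1% the MYRF-type letters and 2.57% both, so single matches were common among all genes. Mobp was the 1 promoter of the table with 6 or more SOX-type matches (0.00304%). The 2 motifs do not overlap in their letters, and these matches describe the sequence without any measure of binding.

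The 8 matrices held 56943 barcodes with a median of 7452 to 14027 unique molecular identifiers (UMIs) per barcode and matrix. Pool and batch date differ between the treatments in the labels, and their effects cannot be told apart from that of Xevinapant. Matrices 1 and 3 of vehicle, 1 and 2 of Xevinapant, and 3 and 4 of Xevinapant were nearly alike. The tumor state makeup of each of these pairs differed by a chi-square of 0.584 to 2.54 per degree of freedom. The other pairs within a group stood at 21.4 to 62.5, and each nearly alike pair was counted as 1 sample. Other cell types did not enter these values. Between the groups, matrices 1 and 3 of vehicle were closer to matrices 3 and 4 of Xevinapant (4.60 to 9.32) than to the other vehicle matrices. The groups follow the treatment label, although the names of the Xevinapant matrices also carry the word Vehicle and the labelled molecule is total RNA for vehicle and polyA RNA for Xevinapant, so every difference between the groups rests on that label. This left 5 samples, vehicle 1 to 3 and Xevinapant 1 and 2, and p-values measure the spread between these samples. No full cell barcode was shared within a group. The droplet part alone was shared by 321 to 1603 barcodes per pair of matrices there, so this absence comes from the rest of the barcode. Matrices of the same number in the 2 groups, which were run as separate pools, shared 178 to 528 full barcodes. After filters 50669 barcodes were kept, of which 39425 reached 3000 UMIs. Of these, 34436 met the tumor gate, 4529 to 9665 per sample, with a median of 14523 to 19147 UMIs. The gate rests on genes of the oligodendrocyte lineage such as Sox10 and Pdgfra. It cannot tell host cells of that lineage from tumor cells. In a tumor sample of this kind, fewer cells of a state and less RNA per cell cannot be told apart from the sum over all tumor cells, so states were also examined separately.

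Tumor states were gated by UMIs of marker genes, none of them a member. At 3000 UMIs per cell, 3 or more UMIs of Bcas1 and Tcf7l2 defined premyelinating-like cells, of Gpr17, Neu4 and Bmp4 committed OPC-like cells, and of Pdgfra, Cspg4, C1ql1 and Lhfpl3 OPC-like cells. Other gates defined astrocyte-like (AC-like), mesenchymal-like (MES-like) and neuronal progenitor-like (NPC-like) cells, and a cell that met several took the gate that comes first in a fixed order. Premyelinating-like cells were 34.4%, 24.6% and 24.3% of tumor cells in vehicle 1 to 3 and 45.9% and 31.6% in Xevinapant 1 and 2, 10647 cells in all. The name follows the markers alone, since 1203 of 2104, 711 of 1209, 1511 of 2351, 954 of 2079 and 1643 of 2904 of these cells also met a cell cycle gate, while premyelinating oligodendrocytes have left the cycle. OPC-like cells numbered 5625, committed OPC-like cells 4563, MES-like cells 2884, AC-like cells 2434, NPC-like cells 211 and cells in no gate 7989. A gate meant for mature oligodendrocytes took 83 cells, but 80 of these had Ppp1r14a and only 9 had Mal, so they are called by that gate's rule and given no cell type. Of the 12 markers listed for mature oligodendrocytes, Aspa, Ermn, Klk6 and Hapln2 were detected in 2, 3, 9 and 48 of 34436 tumor cells, and Gjb1, Mal, Apod and Trf in 141, 272, 320 and 899. Ppp1r14a, Car2, Anln and Qdpr, which other cell types also express, were in 1590, 2299, 8605 and 8801 tumor cells.

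In sums over the 5 samples, levels of all 9 members were higher in premyelinating-like than in OPC-like tumor cells, by a ratio of 2.80 for Cldn11 up to 47.0 for Mag. Among those tested, Enpp6, Opalin and Mbp had the larger log2 differences, Myrf and Cnp smaller ones and Cldn11 the smallest. Levels are given as UMI counts per 1000000 UMIs (CPM) over the summed cells of a state, and since each gene is read by its own probes, levels are not compared between genes. edgeR's quasi-likelihood test called 44.8% of 13432 genes in this comparison, 21.7% as higher and 23% as lower. Myrf, Enpp6, Mbp, Cnp, Cldn11 and Opalin were called higher, while Mag, Mog and Mobp were so low in OPC-like cells, at 1 to 8 UMIs per sample, that they passed the filter on low counts through other states, and their differences are given as descriptions without a test. The gates hold no member but choose cells of this lineage, so the counts describe where the members lie.

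Myrf, the transcription factor of the program, stood at 105, 58.3 and 58.8 CPM in premyelinating-like cells of vehicle 1 to 3 and at 162 and 83.0 CPM in those of Xevinapant 1 and 2. In OPC-like cells of the same samples it stood at 18.3, 10.99, 5.37, 27.3 and 10.6 CPM. Every premyelinating-like value lay above every OPC-like value, and the log2 fold change was 2.78 ± 0.15 (SE, adjusted p = 2.06e-13, edgeR). Enpp6, the marker of newly formed oligodendrocytes, stood at 66.3, 30.4, 43.8, 69.6 and 36.5 CPM in premyelinating-like cells. In OPC-like cells Enpp6 was at 1.47, 0.658, 0.706, 2.29 and 1.53 CPM. The groups did not overlap, and the log2 fold change of 5.28 ± 0.19 (SE, adjusted p = 3.70e-16, edgeR) went with a ratio of 42.9 in summed CPM.

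Mbp, the main basic protein of compact myelin, reached 122, 50.1, 101, 96.2 and 74.7 CPM in premyelinating-like cells and 5.54, 4.54, 2.35, 7.26 and 3.84 CPM in OPC-like cells. The lowest premyelinating-like sample was vehicle 2, and it still lay above all OPC-like values (log2 fold change 4.33 ± 0.24, SE, adjusted p = 4.37e-13, edgeR). Mobp, the other basic protein, was rare, with 272 UMIs in premyelinating-like and 12 UMIs in OPC-like cells over all samples. The ratio was 11.95 with an exact 95% interval of 6.73 to 23.4, which covers counting error only.

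Cnp, the enzyme of the cytoplasmic channels, reached 394, 211, 235, 394 and 251 CPM in premyelinating-like cells. In OPC-like cells it held 55.9, 45.4, 45.5, 65.8 and 44.9 CPM. These groups lay far apart, and with the smallest error of the members the log2 fold change was 2.49 ± 0.099 (SE, adjusted p = 1.21e-15, edgeR). Cldn11, the tight junction protein, varied far more between samples, from 24.1 CPM in vehicle 2 to 182 CPM in Xevinapant 1 among premyelinating-like cells. Its OPC-like values were 46.1, 13.1, 51.1, 31.3 and 33.3 CPM, so the groups overlapped, although the premyelinating-like value was the higher in each of the 5 samples (log2 fold change 1.49 ± 0.23, SE, adjusted p = 7.14e-06, edgeR). This was the call that rested on the gates. Among cells that met a single gate the Cldn11 difference was 0.49 (adjusted p = 0.147, edgeR), while Myrf, Enpp6, Mbp, Cnp and Opalin kept their calls.

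Among the membrane proteins, Mag stood at 10.5, 6.26, 12.3, 14.6 and 5.39 CPM in premyelinating-like cells and between 0.171 and 0.298 CPM in OPC-like cells. Only 25 Mag UMIs fell in all OPC-like cells against 2229 in premyelinating-like cells, a ratio of 47.0 (exact 95% interval 31.8 to 72.8). Opalin stood at 51.8, 24.4, 57.4, 39.5 and 31.6 CPM against 0.994 to 2.60 CPM, without overlap (log2 fold change 4.81 ± 0.27, SE, adjusted p = 9.29e-13, edgeR). Mog, with 589 UMIs against 15, had a ratio of 20.7 (12.5 to 37.2).

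**Figure D1:**
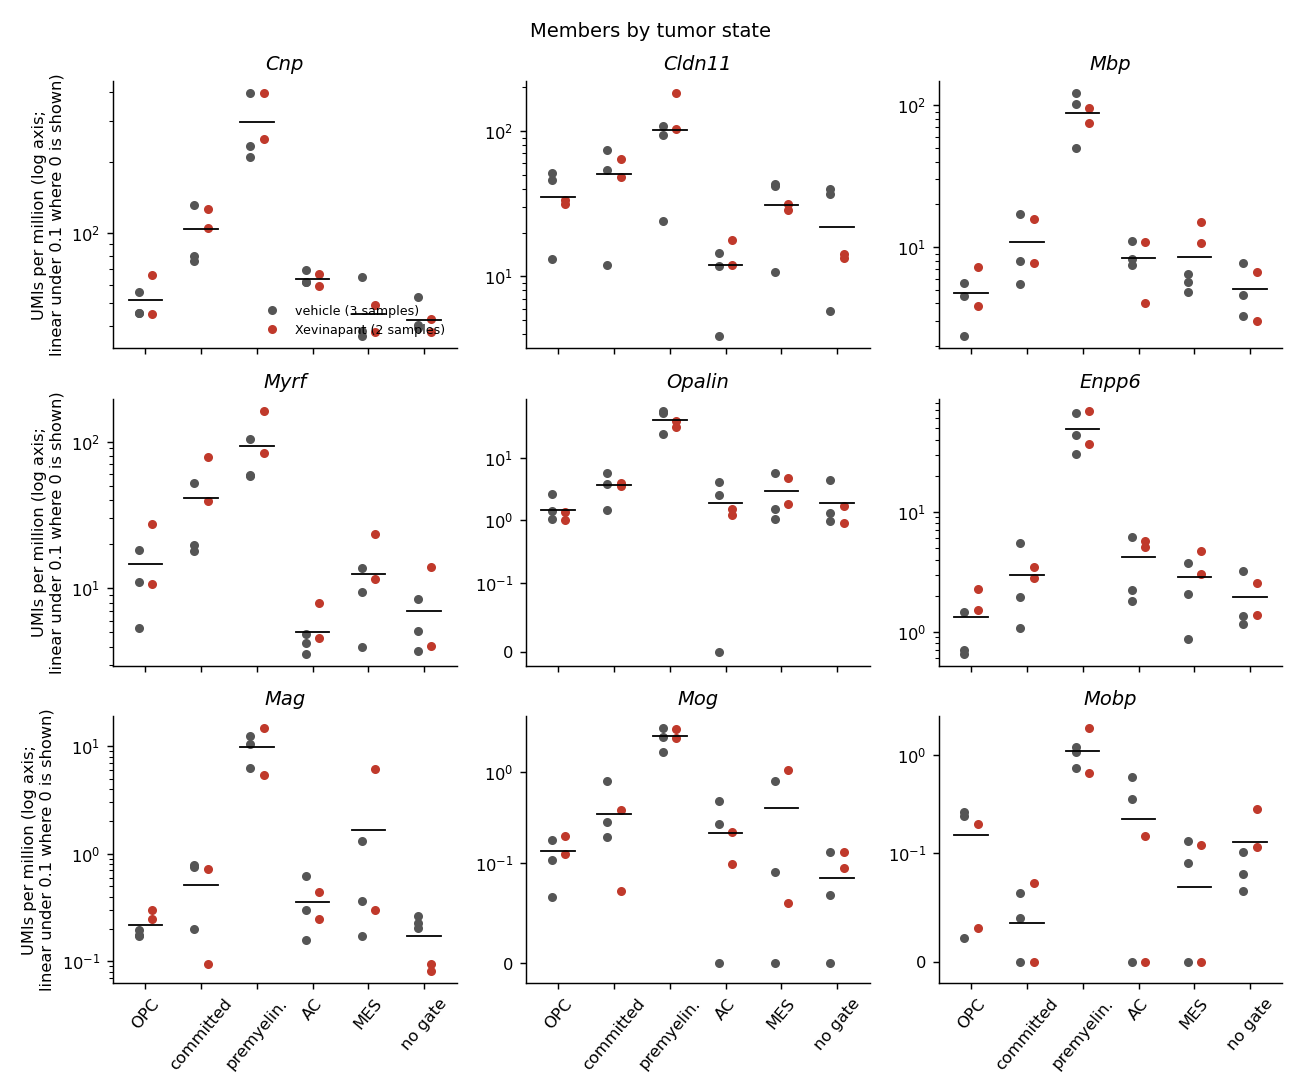
Level of each member in UMIs per 1000000 UMIs, CPM (log axis, linear under 0.1 where a 0 is shown) in 6 tumor states, with a point for each of the 5 samples. All members peak in premyelinating-like cells, where Myrf reaches 58.3 to 162 CPM against 5.37 to 27.3 CPM in OPC-like cells.

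The other states held part of the program at low levels. In committed OPC-like cells, where 37.8% of genes were called against OPC-like cells (18.2% higher, 19.6% lower), 5 of the 6 members that could be tested were called higher: Myrf by 1.53 ± 0.15, Opalin by 1.38 ± 0.31, Mbp by 1.22 ± 0.26, Enpp6 by 1.16 ± 0.23 and Cnp by 0.99 ± 0.099 (log2, SE). Cldn11 did not pass the test there, with a log2 difference of 0.49, and Mag, Mog and Mobp, with 39, 29 and 3 UMIs in all, were too few to be tested. The Opalin call was lost among cells that met a single gate (1.55, adjusted p = 0.0549, edgeR). Committed OPC-like cells thus carried Myrf at 52.2, 19.6, 17.9, 78.9 and 39.1 CPM, below the premyelinating-like value of the same sample in every sample.

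In AC-like cells, marked by Gfap, Mlc1 and Aqp4, 72.5% of genes were called (35.7% higher, 36.8% lower). Enpp6 was 1.87 ± 0.24 higher, Mbp 0.88 ± 0.30 and Cnp 0.39 ± 0.11 higher, and Cldn11 and Myrf fell by 1.56 and 1.29 on the log2 scale against OPC-like cells. The AC-like Enpp6 level was nevertheless only 1.79 to 6.18 CPM, and the Mbp call was lost without vehicle 3 (0.59, adjusted p = 0.0711, edgeR), among cells that met a single gate (0.79, adjusted p = 0.160) and with a gate minimum of 2 UMIs (0.60, adjusted p = 0.112). In MES-like cells, marked by the hypoxia genes Ndrg1, Vegfa and Adm and by Akap12, 61.3% of genes were called (29.8% higher, 31.5% lower), and Enpp6, Mbp and Opalin were called higher by 1.21, 1.04 and 0.95. The Mbp and Opalin calls rested on the gates: among cells that met a single gate they were 0.95 and 0.58 (adjusted p = 0.0887 and 0.361, edgeR), and with a gate minimum of 2 UMIs 0.56 and 0.44 (adjusted p = 0.143 and 0.372). The Opalin call was also lost without Xevinapant 1, at 0.66. Mag, not tested, stood at 6.18 CPM in that sample and at 0.173 to 1.33 CPM in the others, on 78 UMIs in all. In cells of no gate, with 31.8% of genes called (15.6% higher, 16.3% lower), Myrf fell by 1.04 and Cldn11 by 0.73 and none of the members tested was called higher, and the Cldn11 call was lost without vehicle 2 or Xevinapant 2.

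In the edgeR fit every member was lower in cycling tumor cells than in noncycling ones, but Mobp did not fall in every sample. Its level was 0.0951 to 0.550 CPM in cycling and 0.166 to 3.43 CPM in noncycling cells, on 396 UMIs in all. Cycling cells were those in a gate of G1/S or G2/M genes, and Mag, Enpp6, Mbp, Mog and Mobp showed the larger decreases, Opalin, Myrf and Cnp smaller ones and Cldn11 a slight one. edgeR called 71.2% of 14303 genes, 35.1% as higher and 36.2% as lower in cycling cells, against 9 of 9 members as lower. Mbp stood at 23.0, 8.63, 12.1, 24.5 and 12.3 CPM in cycling cells of vehicle 1 to 3 and Xevinapant 1 and 2. In noncycling cells of the same samples it stood at 121, 117, 80.9, 90.7 and 63.9 CPM. The vehicle 2 value rested largely on 1 noncycling cell, which held 1697 of the 3280 Mbp UMIs in tumor cells of that sample. The groups did not overlap, and Mbp fell by 2.51 on the log2 scale (SE 0.21, adjusted p = 8.35e-06, edgeR). Enpp6 went from 75.3, 22.7, 35.7, 66.4 and 29.4 CPM in noncycling cells to 7.83, 4.62, 4.50, 12.8 and 5.56 CPM in cycling cells, and fell by 2.60 (SE 0.14, adjusted p = 5.76e-07, edgeR). Mag fell by 3.64, Mog by 2.41, Mobp by 2.31, Opalin by 1.99, Myrf by 1.37, Cnp by 1.24 and Cldn11 by 0.48. The share of cells with Cldn11 at 3000 UMIs did not follow its level, at 9.84% ± 3.87 in cycling and 9.51% ± 4.44 in noncycling cells (SD, n = 5), and was higher in cycling cells of 4 samples. Leaving out any sample kept all 9 calls.

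The decrease was also present among premyelinating-like cells alone, a comparison added after these data were seen. There 33.8% of 13274 genes were called lower in cycling cells, and 8 of 9 members were called lower, Mag by 3.10, Enpp6 by 2.40, Mog by 2.25, Mbp by 2.14, Opalin by 1.74, Myrf by 1.30, Cnp by 1.27 and Cldn11 by 0.73. Mobp differed by -1.73 without passing the test (adjusted p = 0.0601, edgeR). Cycling cells with members were not absent. Of tumor cells with 3 or more members, 32.7% ± 6.38 (SD, n = 5 samples) were in a cell cycle gate, against 65.3% ± 6.80 of cells with none.

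The share of cells in which a member was detected was compared at an equal 3000 UMIs per cell. Over vehicle 1 to 3 and Xevinapant 1 and 2, Myrf was detected in 9.61%, 5.18%, 3.96%, 16.9% and 6.97% of tumor cells, Mbp in 4.46%, 1.83%, 2.15%, 4.95% and 2.87%, and Enpp6 in 3.11%, 0.955%, 1.49%, 3.95% and 1.99%. Vehicle 1 and Xevinapant 1 were the highest for all 3 genes, and vehicle 1 lay closer to Xevinapant 1 than to the other vehicle samples for Mbp and Enpp6. Mag was found in 0.217% to 0.684%, Mog in 0.122% to 0.486% and Mobp in 0.0828% to 0.142% of tumor cells. In macrophages or microglia, which should lack the program, the shares at 3000 UMIs were 1.27% for Myrf, 0.487% for Enpp6, 0.585% for Opalin, 1.36% for Cldn11, 1.46% for Mag and 0 of 2053 cells, which allows up to 0.146%, for Mog and Mobp. The median depth before thinning was 7533 UMIs in these cells and 16123 UMIs in tumor cells.

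Cnp, Mbp, Mag, Opalin and Enpp6, and Mobp through 1 of 14 neutrophils, had shares in some class outside the tumor gate that reached or passed those of tumor cells, which limits what their detection says. Cnp was found in 19.0% of macrophages or microglia and 51.3% of 39 lymphocytes against 19.0% of tumor cells, and Mbp in 15.7%, 41.0% and 3.08% of the same classes. Mag was in 1.46% of macrophages or microglia and 7.69% of lymphocytes (3 cells) against 0.424% of tumor cells, and its share in premyelinating-like cells, 0.585% to 1.62%, spanned the macrophage share. Opalin was also in 7.69% of lymphocytes (3 cells), against 1.80% of tumor cells. Cnp in tumor cells as a whole was at the macrophage share, and in OPC-like cells, at 12.1% ± 1.32 (SD, n = 5), below it. In premyelinating-like cells Cnp was detected in 38.1%, 26.3%, 26.5%, 40.1% and 30.1% of cells, above that share in every sample. Mbp was detected in 4.71% to 9.27% of premyelinating-like cells, below the 10.9% to 17.2% of macrophages or microglia in every sample. Among endothelial cells, 178 in number with a median of 9068.5 UMIs, Mbp was in 1.12%, Myrf in 0.562%, Cnp in 10.1% and Enpp6 in 4.49%, the last above its 2.16% of tumor cells, and Mag, Mog, Mobp and Opalin in none, which allows a share of up to 1.69%. The Mbp locus also makes golli transcripts, which immune cells are known to express, and the position of the probes is not given in the sources used here.

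The members were detected together in a small fraction of tumor cells. At 3000 UMIs per cell, 69.0% of the 34436 tumor cells had no member, 23.0% had 1, 4.99% had 2 and 1018 cells had 3 or more. These made up 4.17% of tumor cells in vehicle 1 (Wilson 95% interval 3.69 to 4.70), 1.28% in vehicle 2 (1.002 to 1.63), 2.03% in vehicle 3 (1.77 to 2.33), 6.23% in Xevinapant 1 (5.56 to 6.97) and 2.41% in Xevinapant 2 (2.12 to 2.75). The highest value was Xevinapant 1, and the groups overlapped, since vehicle 1 lay above Xevinapant 2. Of the 1018 cells, 915 (89.9%) were premyelinating-like, 59 committed OPC-like, 12 OPC-like, 12 in no gate, 11 MES-like and 7 AC-like. Within premyelinating-like cells the share was 8.42% ± 3.15 (SD, n = 5), within committed OPC-like cells 1.39% ± 0.738 and within OPC-like cells 0.286% ± 0.218. Among cells assigned to other classes 12 of 2664 had 3 or more members, with 3 of 39 lymphocytes and 6 of 2053 macrophages or microglia among them, and among cells assigned to no class 18 of 2325 did. Up to 8 members were found in a cell, 133 cells had 6 or more, of which 130 were premyelinating-like, and 0 of 34436 cells had all 9, which allows a share of up to 0.00871%.

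Nearly all pairs of members fell in the same cell more often than their separate shares would give. For 34 of 36 pairs the number of cells with both was above the number expected under independence within each of the 5 samples, and the median ratio was 6.15 over tumor cells and 3.69 within premyelinating-like cells. The highest ratios belonged to the rarer genes, with 71.3 for Mobp and Mag (12 cells), 64.3 for Mag and Mog (27 cells), 32.2 for Mag and Opalin (91 cells), 28.6 for Mobp and Mog (3 cells, above 1 in 3 of 5 samples), 28.0 for Mag and Enpp6 (99 cells) and 24.3 for Mbp and Mag (120 cells). The lowest were 0.512 for Mobp and Cldn11, with 2 cells, and 1.56 for Cldn11 and Cnp, with 1065 cells. Cldn11 and Cnp were both common in tumor cells, and 681 cells with both were expected from their separate shares. By sample the ratio was 1.25 to 2.04, and over all samples it was the smallest of the ratios above 1. These ratios are descriptions, and cells of a state share their library and gate.

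**Figure D2:**
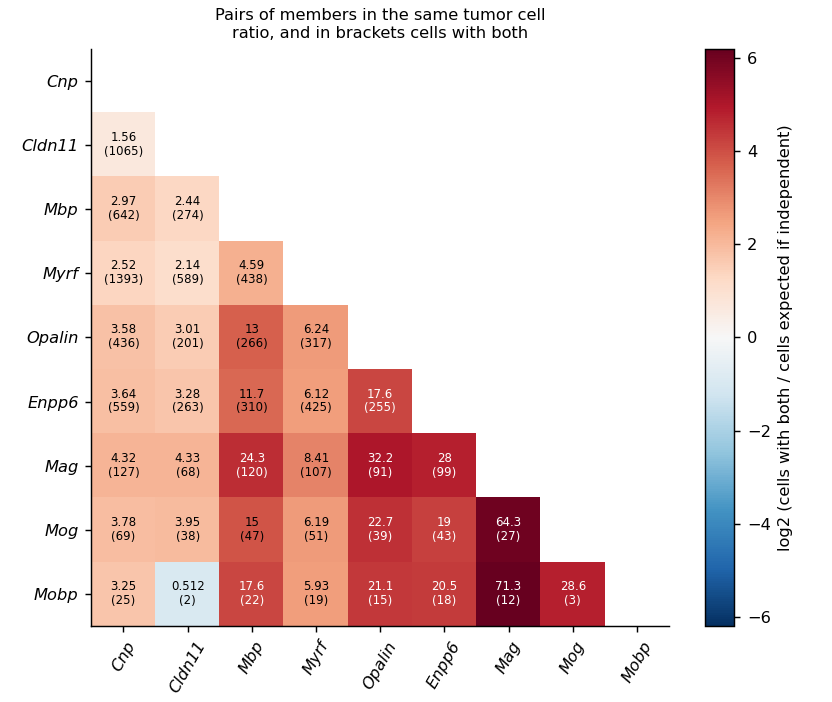
Ratio of tumor cells with both genes to cells expected if independent, summed over the 5 samples, for each pair of members, with color on a log2 scale and in brackets the cells with both. The highest ratio is 71.3 for Mag with Mobp, and Mobp with Cldn11 is the lowest at 0.512.

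Cells with Mag often carried other members as well. Of the 146 cells with Mag, 87.0% had Cnp, 82.2% Mbp, 73.3% Myrf, 67.8% Enpp6, 62.3% Opalin, 46.6% Cldn11, 18.5% Mog and 8.22% Mobp. Of the 34290 tumor cells without Mag, 18.7% had Cnp, 2.74% Mbp, 7.37% Myrf, 1.88% Enpp6, 1.54% Opalin, 10.1% Cldn11, 0.181% Mog and 0.0817% Mobp. Among cells with 3 or more of the other 8 members, Cnp was detected in 92.3% ± 2.26, Myrf in 69.9% ± 8.24, Mbp in 46.6% ± 6.45, Enpp6 in 45.1% ± 5.10, Cldn11 in 38.2% ± 10.999, Opalin in 36.7% ± 9.29, Mag in 14.4% ± 6.95, Mog in 5.88% ± 1.41 and Mobp in 2.80% ± 2.22 (SD, n = 5). In all other tumor cells these shares were 18.5%, 7.31%, 2.12%, 1.08%, 9.09%, 0.888%, 0.0656%, 0.105% and 0.0624%. In such cells the shares of several members were lower in both Xevinapant samples than in every vehicle sample. How many of all genes lay apart in this way was not counted, so these values are a description with no test. Mbp was at 49.3%, 55.6% and 46.5% in vehicle 1 to 3 and 38.3% and 43.3% in Xevinapant 1 and 2, and Enpp6 at 47.6%, 49.1% and 49.4% and 40.8% and 38.4%. Opalin was at 34.3%, 44.1% and 47.6% and 24.4% and 32.8%, Mag at 11.9%, 24.2% and 18.9% and 9.96% and 7.24%, Cnp at 91.1% to 94.9% and 90.6% and 90.4%, and Mog at 5.20% to 7.94% and 5% and 4.55%. The gaps of Cnp and Mog were narrow. Cnp was in 102 of 112 cells in vehicle 3 and 135 of 149 in Xevinapant 1. Mog was in 13 of 250 cells in vehicle 1 and 14 of 280 in Xevinapant 1. Myrf, Cldn11 and Mobp overlapped, with Cldn11 from 26.0% in vehicle 1 to 53.7% in Xevinapant 1.

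For most members the transcripts themselves sat in these few cells. Cells with 3 or more members, 1.28% to 6.23% of tumor cells, held 91.5% ± 3.51 of all Mag UMIs of tumor cells, 82.1% ± 3.61 of Mbp, 79.6% ± 6.29 of Enpp6, 77.3% ± 7.90 of Opalin, 76.3% ± 9.76 of Mobp and 72.1% ± 11.5 of Mog (SD, n = 5). They held only 35.4% ± 8.39 of Cnp, 35.0% ± 7.62 of Myrf and 29.2% ± 15.0 of Cldn11 UMIs. A member is itself among those that chose the cells, so these shares are descriptions. The 10 tumor cells with the most Mbp UMIs were all noncycling, all had Cnp, Myrf, Opalin and Enpp6, and 8 of them were premyelinating-like. Of the same cells 5 had no Cldn11 UMI, 4 had no Mog UMI and 9 had at most 1 UMI of the OPC receptor Pdgfra.

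A single cell decided several values of vehicle 2. This cell, with 69727 UMIs, held 1697 of that sample's 3280 Mbp UMIs in tumor cells, 335 of 512 Mag UMIs and 69 of 105 Mobp UMIs. It was assigned to the mature oligodendrocyte gate, and before thinning it held 67 UMIs of Mal, 103 of Trf and 0 of Cldn11. Whether it was a tumor or a host cell was not tested. Without it vehicle 2 stood at 16.6 CPM of Mbp instead of 34.3, at 1.85 CPM of Mag instead of 5.36 and at 0.377 CPM of Mobp instead of 1.10. It lay outside the premyelinating-like and OPC-like cells compared above, but inside the noncycling cells and the sum over all tumor cells, and the calls for cycling cells held without vehicle 2.

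**Figure D3:**
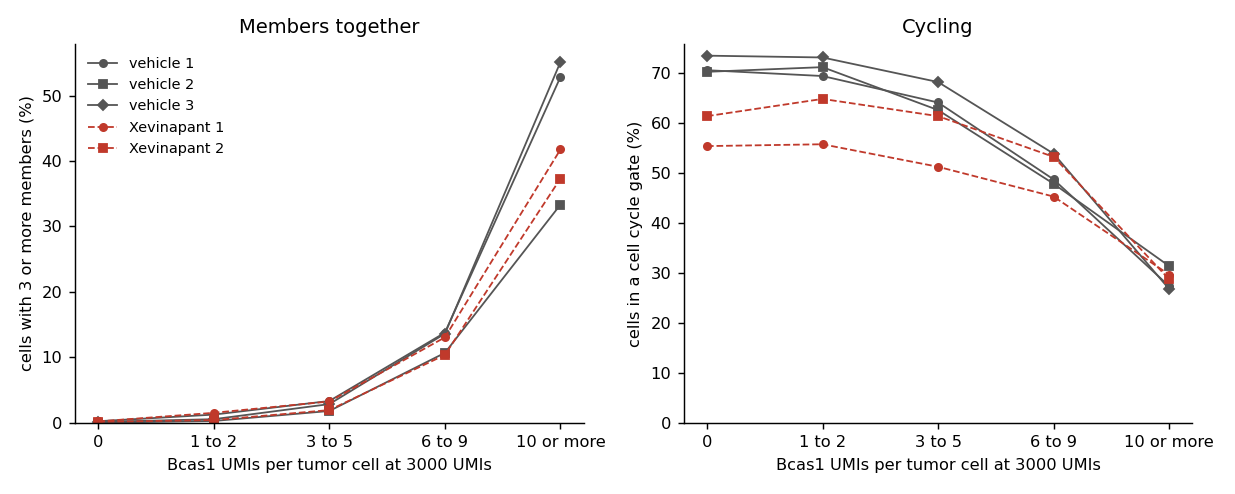
Share of tumor cells with 3 or more members (left, %) and share in a cell cycle gate (right, %) by Bcas1 UMIs per cell at 3000 UMIs, with a line for each of the 5 samples. The first share goes from a mean of 0.146% at 0 Bcas1 UMIs to 44.1% at 10 or more, while the cycling share is lowest at 10 or more in every sample.

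Within the tumor the members followed Bcas1, a protein of premyelinating oligodendrocytes and a gate marker. Cells with 3 or more members were 0.146% ± 0.0923 of cells at 0 Bcas1 UMIs, 0.803% ± 0.551 at 1 to 2, 2.64% ± 0.723 at 3 to 5, 12.3% ± 1.64 at 6 to 9 and 44.1% ± 9.55 at 10 or more (SD, n = 5). Enpp6 went from 0.493% to 33.7% of cells between the lowest and the highest of these classes, Mbp from 1.38% to 29.6%, Opalin from 0.521% to 23.8%, Myrf from 2.80% to 54.3%, Cnp from 11.8% to 77.5% and Cldn11 from 5.95% to 30.6%. Mag went from 0.0537% to 10.5%, Mog from 0.0484% to 4.49% and Mobp from 0.0396% to 1.56%. The 1022 cells of the highest class ranged from 33.3% with 3 or more members in vehicle 2 to 55.1% in vehicle 3. Both Xevinapant samples lay inside that range, and vehicle 2 had only 51 of the cells. Mbp, Opalin, Mag, Enpp6 and Mog were detected in a lower share of these cells in both Xevinapant samples than in every vehicle sample. Mbp was in 37.7%, 31.4% and 35.4% of them in vehicle 1 to 3 and in 23.1% and 20.5% in Xevinapant 1 and 2, Opalin in 26.9%, 23.5% and 40.2% and in 14.3% and 14.2%. Mag was in 10.4%, 17.6% and 17.3% and in 4.67% and 2.61%, Enpp6 in 42.9%, 29.4% and 40.2% and in 27.5% and 28.4%, and Mog in 4.25%, 3.92% and 8.66% and in 3.02% and 2.61%. Of the 51 cells of vehicle 2, only 9 had Mag and 2 had Mog. Myrf, Cnp, Cldn11 and Mobp overlapped between the groups in this highest class. At 6 to 9 Bcas1 UMIs Mbp, Opalin, Mag and Mobp were lower without overlap, at 3 to 5 Mog was higher, and at 0 Mbp was higher in Xevinapant. This pattern was seen in the data, and how many of all genes lay apart in the same Bcas1 classes was not counted. These shares have no test here, and with 3 against 2 samples an exact permutation test cannot go below 0.10. Over all premyelinating-like cells the log2 differences in level were -0.10 for Mbp, -0.34 for Opalin, 0.04 for Mag, 0.17 for Enpp6 and 0.14 for Mog. None of these was called (edgeR).

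The cells with 3 or more members also carried other genes of the lineage. Gpr17, the receptor of committed OPCs, was detected in 93.8% ± 2.39 of them against 44.1% ± 7.36 of cells with no member, and Sox10 in 92.6% ± 5.39 against 33.6% ± 12.9 (SD, n = 5). The myelin lipid enzymes Ugt8a and Fa2h were in 38.4% ± 7.00 and 41.6% ± 4.77 against 3.55% ± 0.995 and 4.31% ± 0.933. Pdgfra was lower, in 25.1% ± 6.16 against 36.9% ± 6.18, as was the astrocyte gene Aqp4, in 2.09% ± 1.03 against 5.54% ± 2.14, while Gfap was in 19.8% ± 8.69 against 18.8% ± 6.49. Among markers of mature oligodendrocytes, Apod was in 11.5% ± 3.58 against 0.41% ± 0.162, Trf in 8.12% ± 4.53 against 2.44% ± 0.637 and Mal in 5.04% ± 2.86 against 0.638% ± 0.380, while Ermn and Aspa were in 0 of these 1018 cells, which allows a share of up to 0.295%. Median depth was 17887 UMIs in them and 15560 UMIs in cells with no member, before thinning to the same 3000. Before these counts, 4.77% of tumor barcodes with 3 or more members had been removed as likely doublets, against 7.16% of those with fewer members. Their chromosome profile was the median log2 ratio to the other classes over the genes of each chromosome, 9129 genes in all. It had the same sign as that of the remaining tumor cells on 17 of 20 chromosomes, 8 of the 8 farthest from 0 among them. Sizes differed, with sample means of 0.0522 against 0.201 on chromosome 2, -0.253 against -0.385 on 4 and -0.0356 against 0.101 on 7. On chromosome 15 these cells lay farther from 0, at 0.391 against 0.292. Whether host cells were among them was not tested.

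The wider myelin program moved in part with the members, by lists chosen with earlier results of these data known. Of 12 other myelin proteins tested in premyelinating-like against OPC-like cells, 9 were called higher and none lower, with a median log2 difference of 0.80 against -0.01 over all genes, among them Nfasc (1.44) and Pllp (1.24). Beside 21.7% of all genes called higher and 23% lower, 5 of 13 myelin lipid enzymes were higher and 2 lower (median 0.04), led by Elovl7 (2.65), Gal3st1 (2.64) and Fa2h (2.13). Of 10 oligodendrocyte regulators 6 were higher and 2 lower (median 0.85), with Zfp536 at 2.36, Sox10 at 1.40 and Nkx2-2 at 1.32. Of 10 committed and premyelinating markers 9 were called higher, but Bmp4, Neu4, Gpr17 and Bcas1 belong to the gates, while Tmem163 (4.16) does not. Among mature oligodendrocyte markers Apod (2.56) and Mal (1.19) were called higher and Anln (-0.62) lower, of 8 tested besides Klk6 and Hapln2, which were too rare for their tests to be used. Of 9 OPC markers 3 were higher and 1 lower (median 0.15), and of 8 inhibitors of differentiation 5, with the gate gene Gpr17 among them, were higher and 2, Hes5 (-0.67) and Hes1 (-0.52), lower. Among cells that met a single gate Nfasc, Pllp, Gpr17 and the OPC markers Vcan and Gpr37l1 turned to lower values, and Neu4 (0.41), Sox10 (0.29), Mal (0.55), Ednrb (0.19) and Hes5 (-0.17) did not pass the test.

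In cycling against noncycling cells, all 13 other myelin proteins tested were called lower (median -0.68 against -0.02 over all genes), among them Nfasc (-1.53) and the gap junction gene Gjb1 (-1.36). Over all genes 36.2% were called lower and 35.1% higher. Of 13 lipid enzymes 8 were lower and 4 higher, of 10 regulators 6 lower and 4 higher, and of 10 committed and premyelinating markers 9 lower and 1 higher. Tmem163 fell by 2.13, Bmp4 by 1.64 and Sox10 by 0.59. Of the 8 mature markers besides Klk6 and Hapln2, 5 were lower and 2 higher, the latter including Anln (2.91), which also takes part in cell division. Of 8 inhibitors of differentiation 6 were lower, among them Id4 (-1.71) and Gpr17 (-0.86), and of 9 OPC markers 6 were lower, among them Ednrb (-1.04).

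No member passed the test of its CPM level between Xevinapant and vehicle tumor cells. Myrf had the largest difference, at 49.2, 23.1 and 19.1 CPM in vehicle 1 to 3 and 98.7 and 33.7 CPM in Xevinapant 1 and 2, a mean of 30.5 ± 16.4 against 66.2 ± 45.9 CPM (SD). The groups overlapped, with vehicle 1 above Xevinapant 2, and the log2 fold change was 1.09 ± 0.52 (SE, adjusted p = 0.479, edgeR). Without Xevinapant 1 it was 0.09. edgeR called 0 of 14495 genes (0%), with 1576 at an unadjusted p under 0.05, DESeq2 called 250 (1.32%) and edgeR with each matrix as 1 mouse called 620 (4.43%), and no member was among the calls of either alternative.

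Cldn11 stood at 59.6, 12.9 and 61.8 CPM in vehicle and at 106 and 49.6 CPM in Xevinapant, and Enpp6 at 26.1, 8.93 and 11.5 CPM and at 36.1 and 13.2 CPM. In both genes vehicle 2 was the lowest and Xevinapant 1 the highest, and the log2 fold changes were 0.76 ± 0.62 and 0.64 ± 0.55 (SE). Mbp held 49.6, 34.3, 27.4, 53.3 and 28.7 CPM over vehicle 1 to 3 and Xevinapant 1 and 2, Cnp 186, 97.5, 93.6, 233 and 114 CPM, and Opalin 21.3, 7.37, 15.3, 20.9 and 10.9 CPM. For all 3 the groups overlapped, with log2 fold changes of 0.11 ± 0.32, 0.43 ± 0.38 and 0.09 ± 0.45 (SE). Mog (0.51 ± 0.50), Mag (0.23 ± 0.56) and Mobp (-0.22 ± 0.66) had as wide an error, and adjusted p-values of the 9 members ran from 0.479 to 0.956 (edgeR). In 7 of the 9 members the sign turned when 1 sample was left out.

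**Figure D4:**
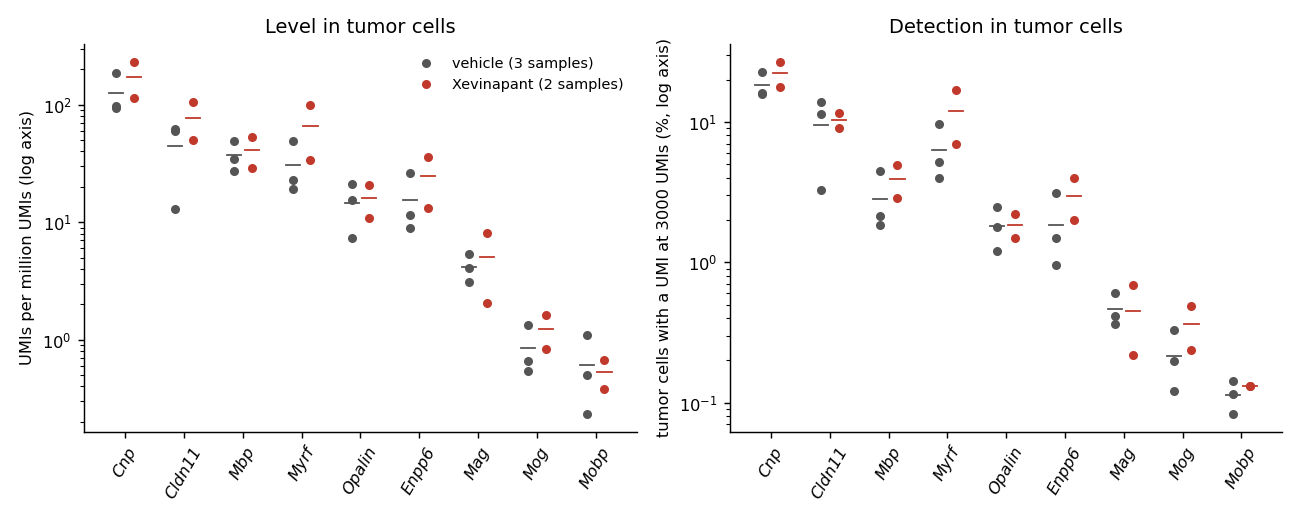
Level in CPM (left) and share of cells with a UMI at 3000 UMIs in % (right), both on log axes, of each member in tumor cells, with a point per sample. Vehicle and Xevinapant points overlap for every member, and Myrf in Xevinapant 1 stands highest at 98.7 CPM against 19.1 to 49.2 CPM in vehicle.

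**Figure D5:**
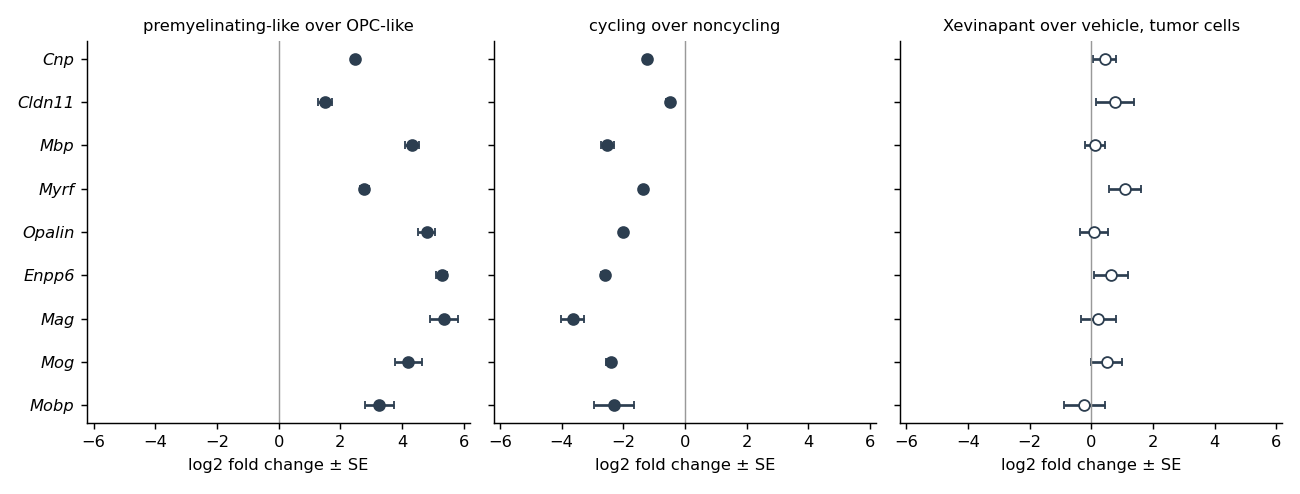
Log2 fold change ± SE of each member between premyelinating-like and OPC-like cells, cycling and noncycling cells, and Xevinapant and vehicle tumor cells, with filled points for an adjusted p under 0.05 in edgeR. The 9 members lie above 0 in the first, below 0 in the second, and are not called in the third. In the first, Mag, Mog and Mobp passed the filter through other states, so their filled points and errors are not used as a test.

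Within single states the treatment comparison looked alike. In premyelinating-like cells edgeR called 0 of 13528 genes (1752 at an unadjusted p under 0.05), and Myrf and Cldn11 had log2 differences of 0.72 ± 0.35 and 0.91 ± 0.56 (SE, adjusted p = 0.410 and 0.490, edgeR), while the other 7 members lay between -0.34 and 0.33. Myrf leaned the same way in each of the other states tested, by 0.99 in committed OPC-like, 0.95 in MES-like, 0.68 in OPC-like, 0.48 in AC-like and 0.57 in cells of no gate, but none passed the test and the samples overlapped. In these states edgeR called 0 genes except 1 of 12355 in MES-like cells (0.00809%), and 879 to 2242 genes had an unadjusted p under 0.05. Mbp in MES-like cells did not overlap, at 6.498, 4.86 and 5.69 CPM in vehicle and 14.9 and 10.7 CPM in Xevinapant, with a log2 difference of 1.13 ± 0.27 (SE, adjusted p = 0.112, edgeR). In OPC-like cells Enpp6 (0.658 to 1.47 against 1.53 and 2.29 CPM) and Mag also did not overlap, with the Xevinapant samples higher and 25 Mag UMIs in all. In cells of no gate Mag did not overlap in the other direction, at 0.203 to 0.262 CPM in vehicle and 0.0811 and 0.0943 CPM in Xevinapant (26 and 6 UMIs), and Mobp, at 19 UMIs in all, was higher in both Xevinapant samples. In NPC-like cells, with 8 cells in Xevinapant 1, Mbp and Enpp6 were lower in both Xevinapant samples on 26 and 3 UMIs in all. No test was run there. In premyelinating-like, committed OPC-like and AC-like cells the groups overlapped for every member, as they did for the members not named here in the other states. How many of all genes lay apart between the groups in these states was not counted, so these values are a description. With 3 against 2 samples an exact permutation test cannot go below 0.10. Over tumor cells edgeR called 0 of 14495 genes by treatment, so no gene list described above could hold a called gene.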

How the data were processed

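Single-cell RNA from 4 tumors per group was read through gene probes with a 10x Genomics kit. The authors deposited UMI counts per gene and cell, unnormalized whole numbers, in 8 matrices that hold the barcodes called as cells. The methods name Cell Ranger with mm10 and Seurat, while the matrix headers name a later Cell Ranger version, and the study's own cell filters are not yet applied in the files. The 9 genes and all lists were chosen with earlier results of these data known.

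As in the methods, barcodes with fewer than 200 genes, over 10% mitochondrial UMIs or a complexity under 0.8 were dropped. The highest doublet scores of Scrublet (scanpy 1.11.5) were removed at 0.8% per 1000 barcodes, 3905 in all. Cells were thinned to 3000 UMIs for gates and shares, and 11244 shallower barcodes were left out. Tumor cells had 5 or more UMIs of 10 tumor markers and at least 3 times the UMIs of the other cell type lists. The tumor markers were Olig1, Olig2, Sox10, Sox2, Ptprz1, Bcan, Cspg4, Pdgfra, Fabp7 and Vcan. No class was set for host cells of the oligodendrocyte lineage. State gates needed 3 UMIs, taken in the order mature, premyelinating-like, committed OPC-like, NPC-like, AC-like, MES-like, OPC-like. Counts were summed without thinning per sample and state with at least 10 cells in every sample, and tested with edgeR 4.0.16 (R 4.3.3), TMM, filterByExpr, its quasi-likelihood test and Benjamini-Hochberg adjustment at 0.05 over all genes tested, with sample as a block between states and between cycling and noncycling cells. The test was tested on simulated data first. Named list genes are up to 3 with the largest called change, and 1 gene of a list is not reported here. The tests were repeated with DESeq2 1.42.0, without TMM, without the filter on low counts, with each matrix as 1 mouse, with doublets kept, with other gates and thinning depths, and with each sample left out. Wilson and exact intervals cover counting error only. Promoters came from RefSeq's table. Python 3.11.15, numpy 2.4.6, scipy 1.17.1, pandas 2.3.3 and matplotlib 3.10.9 were used.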

Additional observations from a re-analysis of the deposited data

How the results depend on the processing

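No paired analysis was possible because the labels give no replicate numbers that link vehicle and Xevinapant mice, and comparisons within a mouse already held the sample as a block. The calls of premyelinating-like against OPC-like cells held for Myrf, Enpp6, Mbp, Cnp and Opalin under every gate, and for these and Cldn11 with any sample left out, and those of cycling cells for all 9 members with any sample left out. Among cells that met a single gate the genes called numbered 3171 for premyelinating-like and 2056 for committed OPC-like cells, where fewer cells enter, and the log2 differences turned to -0.12 for Gpr17, -0.36 for Gpr37l1, -0.0848 for Nfasc, -0.24 for Pllp and -0.0304 for Vcan. The cause was not tested. In the treatment comparison DESeq2 called 250 genes and each matrix as 1 mouse 620, and Mobp turned to 0.0112 with a stricter tumor gate, 0.45 without cells of the mature oligodendrocyte gate and 0.17 without the cell with the most Mbp UMIs in each sample, an alternative chosen after seeing the data. Opalin turned to -0.0568 over all kept barcodes and -0.0417 with each matrix as 1 mouse.

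With 1 sample left out, the log2 difference between Xevinapant and vehicle tumor cells ranged from -0.19 to 0.87 for Cnp, -0.29 to 1.23 for Enpp6, -1.09 to 0.92 for Mag, -0.43 to 0.50 for Mbp, -0.69 to 0.52 for Mobp, -0.0693 to 0.97 for Mog, -0.48 to 0.49 for Opalin and 0.09 to 1.67 for Myrf. In premyelinating-like cells it ranged from -0.21 to 0.51 for Cnp, -0.42 to 0.58 for Enpp6, -0.90 to 0.60 for Mag, -0.39 to 0.15 for Mbp, -0.60 to 0.87 for Mobp and -0.0801 to 0.35 for Mog, and for Myrf from -0.16 to 1.23 in OPC-like cells and -0.52 to 1.21 in cells of no gate. The genes called in the treatment comparison ranged from 0 to 1 in premyelinating-like and AC-like cells, 0 to 33 in committed OPC-like cells and 0 to 175 in MES-like cells. The share of cells with 3 or more members was 2.49% in vehicle and 4.32% in Xevinapant as means over samples, 4.18% and 7.62% at 6000 UMIs per cell, and 6.58% and 11.4% for 2 or more members. It ranged from 1.65% to 3.10% in vehicle and from 2.41% to 6.23% in Xevinapant with 1 sample left out. Depth limits Mog and Mobp most, with 680 and 396 UMIs in all tumor cells.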

Other observations

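Outside the tumor cells, Mbp, Cnp and Mag were also present in immune cells. Macrophages or microglia held 55.3, 44.7 and 53.2 CPM of Mbp in vehicle 1 to 3 and 58.1 and 54.9 CPM in Xevinapant 1 and 2. Their Cnp level was 91.4, 61.0, 85.4, 77.1 and 72.1 CPM. Both genes varied less between samples in these cells than in tumor cells, where Mbp ran from 27.4 to 53.3 CPM and Cnp from 93.6 to 233 CPM. Mag stood at 4.70, 7.32, 6.14, 3.91 and 5.59 CPM there, against 2.04 to 8.02 CPM in tumor cells. Myrf in the same macrophages or microglia stood at 1.63 to 7.50 CPM, and Mobp had no UMI in any sample.

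Over 30 profiles, 6 tumor states in 5 samples, the genes most like the mean of the members by Pearson's r among 7398 genes were Chn2 (0.952), Bcas1 (0.943, a gate marker), Tubb4a (0.901), Pde4d (0.892), Ctnnal1 (0.889), Elmo1 (0.888), Dock4 (0.883), Ppp1r21 (0.877), Tbc1d14 (0.874) and Usp20 (0.871). Among the members, r with that mean was lowest for Cldn11 (0.713) and Mobp (0.768) and highest for Mog (0.966). The mean includes the member itself, which raises these values, so they are not compared with those of the other genes. The profiles share cells' libraries and the gates, and these values are a description.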
